A study of Homo sapiens with 33 samples.

Results

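NB4 cells, an established human line of acute promyelocytic leukaemia, were compared here after 12 h and after 4 h in the solvent DMSO, without retinoic acid. The 6 libraries concerned (3 at 12 h and 3 at 4 h, of 33 in the series) were chosen by their labels and column headers, which give treatment and time, and no measured value entered the choice. NB4 carries the PML-RARA fusion, and its cells stop maturing at the promyelocyte stage, as in the leukaemia the line came from. In the whole series cells were left untreated (0 h) or kept in 1 µM all-trans retinoic acid (ATRA) or DMSO for up to 120 h, and total RNA was sequenced from 3 biological replicates a group, numbered 2, 4 and 5. The DMSO cultures are the control arm for ATRA, and the DMSO concentration is not given in the sources used here. All 6 libraries ran in sequencing lane 4, per the column headers, as did the untreated libraries and the ATRA libraries of 4 h and 12 h. The comparison asks how control cultures changed between these times, which is a change that a comparison of ATRA with DMSO at a single time does not show. NB4 is a single line, and hours in DMSO cannot be told apart from hours in culture here, because both groups received DMSO.

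Totals per library ran from 21720842 to 33490654 fragments, and levels below are CPM, counts relative to the scaled library size. Libraries of 12 h correlated with each other at 0.9927 to 0.9952 across genes on the log scale, those of 4 h at 0.9876 to 0.9933, and 12 h with 4 h libraries at 0.9835 to 0.9902. Replicate 5 at 4 h stood apart in its composition. Protein-coding genes took 80.6% of its counts against 82.5 to 86.1% in the other 5 libraries, and mitochondrial and small RNA genes 10.4% against 7.21 to 9.07%. The 10 promyelocyte markers examined summed to 10097 to 11465 CPM at 12 h and 10135 to 11039 CPM at 4 h. Of the 9 tested 0 rose and 1, CTSG, fell, against 5.96% and 5.15% of all genes. The 3 markers low or absent in NB4 (CD34, HLA-DRA and HLA-DRB1) summed to at most 0.46 CPM at 12 h and 0.55 CPM at 4 h. MPO, which encodes the myeloperoxidase of azurophil granules, had 7480, 8715 and 8061 CPM at 12 h (replicates 2, 4 and 5, the order used for every triplet below) and 8070, 7649 and 8642 CPM at 4 h, while CD34 had no count in any of the 6 libraries. PRG2, a granule protein gene of eosinophils, averaged 715 CPM at 12 h and 615 CPM at 4 h without a call. The eosinophil, basophil and mast cell markers, PRG2 among them, summed to 754, 820 and 794 CPM at 12 h. At 4 h they summed to 772, 805 and 484 CPM, lowest in replicate 5.

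Several systems make up the results. NF-kB dimers wait in the cytoplasm bound to IkB proteins and, once released, switch on chemokines, adhesion molecules, survival genes and their own inhibitors, so that a pulse of signalling ends itself. Immediate early genes respond to growth factors and handling without new protein synthesis and fall back within hours. Maturing myeloid cells gain adhesion and pattern recognition receptors, the phagocyte oxidase and granule proteins, a programme that is blocked in promyelocytic leukaemia.

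Across 22971 tested genes, 2553 differed between 12 h and 4 h at an adjusted p under 0.05 (11.1%), 1370 of them higher at 12 h (5.96%) and 1183 lower (5.15%). Most changes were small. The median log2 change, 12 h over 4 h as in every change below, was 0.39 among rising genes and -0.38 among falling genes, and only 86 genes rose and 151 fell by 2-fold or more. In 2324 of the called genes (91.0%) the 3 libraries of 12 h did not overlap the 3 of 4 h, against 22.3% of all tested genes. Protein-coding genes supplied 1157 rises and 1009 falls among 13418 tested, and long noncoding genes 95 rises and 76 falls among 3156. Fitting the 2 groups alone, without the spread of the other libraries, called 849 genes, 509 rising and 340 falling. Among single libraries the falling count depended most on replicate 5 at 12 h, without which 705 genes fell and 1126 rose. RNA was taken from whole cultures, so fewer cells of a kind and less RNA per cell cannot be told apart for any gene below.

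The 14 protein-coding genes of largest rise at 12 h included immune ligands, transcription factors and signalling genes (limits on level and overlap are given under the processing). ANKRD22 (ENSG00000152766, GRCh38 chromosome 10, 88819903 to 88869051, minus strand) had 21.4, 19.6 and 20.02 CPM at 12 h and 7.29, 5.71 and 4.56 CPM at 4 h, a log2 change of 1.80 ± 0.12 (SE; adjusted p = 5e-14). The lowest value of 12 h lay well above the highest of 4 h, and the naming rule required no overlap in any of the 14 genes. IRAG2, an endoplasmic reticulum membrane protein gene of blood cells, had 53.4, 51.1 and 47.5 CPM at 12 h against 18.5, 22.3 and 15.99 CPM at 4 h (1.42 ± 0.08, adjusted p = 2.5e-15). Without overlap between the times, the zinc finger factor KLF15 rose by 1.54, the homeobox factor HLX by 1.33 and NOG, which encodes the BMP antagonist noggin, by 1.49. RGS18, a regulator of G protein signalling in blood cells, rose by 1.36, the mTORC1 inhibitor SESN3 by 1.29, the orphan receptor GPR85 by 1.21, ABTB2 by 1.21, the transglutaminase gene TGM3 by 1.30 and the transporter gene SLCO5A1 by 1.29.

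CD80 and CD86, the ligands of CD28 on T cells, headed the list by size but were barely detected. With S100A8 and, among falling genes, CXCR5, IL1A and PTGER2, they lay below 1 CPM in all 6 libraries. These 6 genes met the level limit, an average over all 33 libraries, only through other groups of the series, so their place among the largest changes is a description. CD86 had 0.830, 0.412 and 0.726 CPM at 12 h, 54 fragments in all, against 0.0857, 0.256 and 0.0365 CPM at 4 h, 10 fragments in all (2.27 ± 0.49, adjusted p = 0.0014). CD80 had 18 fragments at 12 h and 3 at 4 h, a ratio of 5.35 with a 95% counting interval of 1.56 to 28.3. Its call (adjusted p = 0.045) was lost without replicate 2 or 4 at 12 h (0.068 and 0.23) and without replicate 2 or 4 at 4 h (0.16 and 0.11). S100A8, a subunit of the neutrophil protein calprotectin, had 0.632, 0.383 and 0.497 CPM at 12 h and 0.172, 0.183 and 0.256 CPM at 4 h. Its adjusted p of 0.029 became 0.12 and 0.060 without replicate 2 or 5 at 12 h and 0.095 and 0.088 without replicate 2 or 4 at 4 h.

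The 14 genes of largest fall held immune receptors, a cytokine and genes of other kinds. PTX3, a secreted pentraxin of innate immunity (ENSG00000163661, chromosome 3, 157436789 to 157443628, plus strand), had 1.42, 1.27 and 1.03 CPM at 12 h and 5.57, 5.61 and 6.06 CPM at 4 h (-2.21 ± 0.16, adjusted p = 6.9e-13). RELB, an NF-kB subunit, had 8.41, 9.84 and 10.1 CPM at 12 h against 24.9, 24.7 and 29.3 CPM at 4 h (-1.48 ± 0.11, adjusted p = 4.7e-13). In both genes every 12 h library lay below every 4 h library, as the naming rule required, and the values within a time were close to each other. KNDC1, a Ras exchange factor gene, fell by 2.15 on the log2 scale, ZBTB7C, a zinc finger factor gene, by 1.87, BIRC3, which encodes the apoptosis inhibitor cIAP2, by 1.66, and TNFRSF4, the T cell costimulator OX40, by 1.60. TREM1, a receptor that amplifies inflammation in myeloid cells, fell by 1.54, TFEB, a master factor of lysosome genes, by 1.53, the IgA receptor gene FCAR by 1.51, the scavenger receptor gene SCARF1 by 1.495 and the growth factor gene PDGFA by 1.49.

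The other 3 genes of that group rested on few fragments. CXCR5, the chemokine receptor of B cell follicles, had 1 fragment at 12 h and 12 at 4 h, a ratio of 0.0743 (95% counting interval 0.00174 to 0.502), and its adjusted p of 0.030 became 0.090, 0.14 and 0.12 without replicate 2 or 4 at 12 h or replicate 4 at 4 h. IL1A had 0.118, 0.0883 and 0.153 CPM at 12 h and 0.386, 0.403 and 0.402 CPM at 4 h (adjusted p = 0.023, but 0.054, 0.11 and 0.051 without the same libraries). PTGER2, a prostaglandin E2 receptor gene, had 0.277, 0.294 and 0.115 CPM at 12 h and 0.557, 0.513 and 0.876 CPM at 4 h (adjusted p = 0.013, but 0.092 and 0.099 without replicate 5 at 12 h or at 4 h). None of these levels is far from the lower limit of detection.

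**Figure D1:**
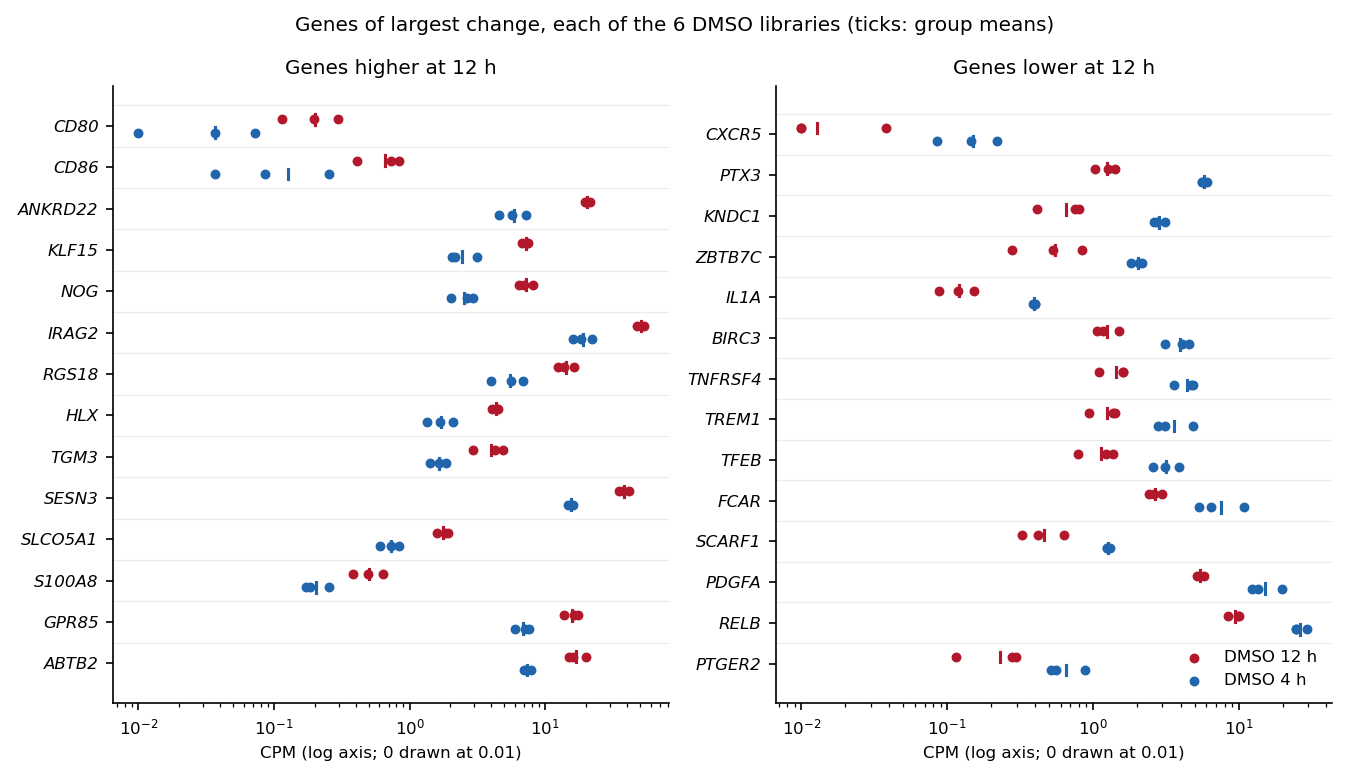
CPM of the 14 genes of largest rise (left) and the 14 of largest fall (right) in each of the 6 DMSO libraries on a log axis, with 12 h above 4 h in each row, points for libraries and ticks for group means. The 2 times do not overlap in any row, as the naming rule required, and CD80, CD86, S100A8, CXCR5, IL1A and PTGER2 lie below 1 CPM.

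Some genes of the NF-kB system were lower at 12 h. Of 18 tested subunits and feedback inhibitors 0 rose, 8 fell and 10 were not called, and the list's median log2 change was -0.23, against a median of -0.02 over all tested genes and with 5.15% of all genes falling. NFKB2, which encodes the p100 precursor of p52 (ENSG00000077150, chromosome 10, 102394110 to 102404112, plus strand), had 14.4, 16.2 and 14.7 CPM at 12 h and 34.7, 42.3 and 44.7 CPM at 4 h (-1.43 ± 0.10, adjusted p = 1.8e-13). NFKBIA, the gene of the inhibitor IkB alpha, had 41.9, 45.8 and 47.4 CPM at 12 h and 74.9, 75.1 and 83.5 CPM at 4 h (-0.79 ± 0.07, adjusted p = 1.7e-10). TNFAIP3, which encodes the ubiquitin editor A20 that stops NF-kB signalling, had 24.9, 29.01 and 30.1 CPM at 12 h and 47.8, 47.8 and 50.5 CPM at 4 h (-0.80 ± 0.09, adjusted p = 4.7e-08). Each of these genes was lower in every 12 h library than in any 4 h library. NFKB1, the p105 and p50 gene, fell less, by 0.56, as did the inhibitor gene NFKBIE, by 0.50. BCL3, a nuclear IkB family coactivator gene, fell by 1.42. With RELB and BIRC3 these are the 8 members that fell, and each of the 8 kept its call when any 1 library was left out. Of those 6 fits, 2 called a ninth member, and none called a riser, nor did edgeR at an unadjusted p under 0.05.

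Promoters of 3 of the falling genes and of LTB, a lymphotoxin gene described next, hold the letters GGGA N TTTCC (N is any base) of an NF-kB site and are shown because these 4 genes fell. Sequences are from RefSeq (GRCh38.p14), 250 bases before to 50 after the gene start on the gene's own strand, with the match on either strand in capitals. The spans are chr6:137867009-137867308 (plus) for TNFAIP3, chr14:35404700-35404999 (minus) for NFKBIA, chr4:102501109-102501408 (plus) for NFKB1 and chr6:31582376-31582675 (minus) for LTB.
TNFAIP3: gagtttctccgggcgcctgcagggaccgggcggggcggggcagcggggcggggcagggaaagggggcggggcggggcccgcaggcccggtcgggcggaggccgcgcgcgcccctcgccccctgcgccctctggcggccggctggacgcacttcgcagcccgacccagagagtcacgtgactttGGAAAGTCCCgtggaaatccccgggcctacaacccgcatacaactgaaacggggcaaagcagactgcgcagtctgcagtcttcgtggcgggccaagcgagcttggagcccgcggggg
NFKBIA: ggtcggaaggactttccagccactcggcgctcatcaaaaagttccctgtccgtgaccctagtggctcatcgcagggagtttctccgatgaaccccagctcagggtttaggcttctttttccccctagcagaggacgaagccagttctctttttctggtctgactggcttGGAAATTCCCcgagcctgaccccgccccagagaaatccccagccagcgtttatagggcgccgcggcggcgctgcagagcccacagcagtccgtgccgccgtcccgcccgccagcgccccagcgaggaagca
NFKB1: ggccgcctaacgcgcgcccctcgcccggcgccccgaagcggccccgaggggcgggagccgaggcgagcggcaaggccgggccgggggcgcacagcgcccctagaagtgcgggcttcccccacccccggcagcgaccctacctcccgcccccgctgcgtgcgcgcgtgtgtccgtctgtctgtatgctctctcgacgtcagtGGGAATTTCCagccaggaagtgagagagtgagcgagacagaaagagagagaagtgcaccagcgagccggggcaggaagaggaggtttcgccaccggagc
LTB: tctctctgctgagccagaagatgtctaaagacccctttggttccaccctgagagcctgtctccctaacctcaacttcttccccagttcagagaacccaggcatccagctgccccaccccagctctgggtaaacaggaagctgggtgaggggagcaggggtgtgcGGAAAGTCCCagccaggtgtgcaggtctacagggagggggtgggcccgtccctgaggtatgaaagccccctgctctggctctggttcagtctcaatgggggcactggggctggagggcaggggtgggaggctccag
The matches start 67 bases before the gene start in TNFAIP3, 81 in NFKBIA, 49 in NFKB1 and 86 in LTB. Letters of this form occurred in 5 of 17 promoters of the NF-kB list (29.4%) and in 6 of 25 of the chemokine and cytokine list (24%), against 158 of 27305 promoters in the table (0.579%). The members holding them were not only the falling ones. In the NF-kB list REL and NFKBIZ hold a match and were not called, and in the cytokine list LTB alone fell among the 6. A match is a description of these letters and not evidence that a factor bound there.

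Of 31 tested chemokines and cytokines 9 fell and 1 rose at 12 h, against 5.15% and 5.96% of all genes, and the median change of -0.07 was close to that of all genes. CCL2, which attracts monocytes, had 14.3, 13.3 and 12.1 CPM at 12 h and 24.4, 28.2 and 25.5 CPM at 4 h (-0.98 ± 0.12, adjusted p = 2.4e-07). LTB had 3.16, 3.68 and 3.09 CPM at 12 h and 6.60, 7.47 and 7.08 CPM at 4 h (-1.08 ± 0.15, adjusted p = 1.5e-06). The ranges of the 2 times were far apart in both genes. IL1B, an inflammasome substrate, fell by 1.12, and CXCL10, a chemokine induced by interferon, by 1.43 from under 2 CPM. CCL3 and CCL4, macrophage inflammatory proteins, fell too, but share 98.3% and 90.3% of their exon length with another gene model, so their counts are uncertain. TNF had 40.1, 47.7 and 44.2 CPM at 12 h and 58.8, 53.2 and 61.7 CPM at 4 h (-0.39 ± 0.11, adjusted p = 0.011, but 0.068 without replicate 2 at 12 h). IL16, a T cell attractant, was the member that rose, with 10.7, 10.7 and 11.2 CPM at 12 h and 6.90, 6.85 and 6.64 CPM at 4 h (0.68 ± 0.08, adjusted p = 1.1e-07). Without replicate 2 at 12 h the list had 6 falling members.

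ICAM1, the endothelial and leukocyte adhesion molecule, stood against its own list. It had 34.8, 36.8 and 41.7 CPM at 12 h and 79.4, 85.4 and 91.8 CPM at 4 h (-1.18 ± 0.11, adjusted p = 2.6e-10), while 13 of the 35 tested myeloid surface receptors and integrins rose and it alone fell (median 0.27, 5.96% of all genes rising). TLR4, the receptor for lipopolysaccharide, had 5.02, 4.83 and 5.23 CPM at 12 h and 2.44, 2.56 and 1.86 CPM at 4 h (1.13 ± 0.15, adjusted p = 4.9e-07). CXCR2, a neutrophil chemokine receptor, rose by 0.89 and SELPLG, which encodes the selectin ligand PSGL-1, by 0.80. Integrin subunits rose by less. ITGA5 of the fibronectin receptor had 216, 236 and 219 CPM at 12 h and 154, 158 and 178 CPM at 4 h (0.46 ± 0.07, adjusted p = 7.3e-06), ITGA4 rose by 0.39 and ITGAM, the CD11b gene, by 0.51. FCGR1A, the high-affinity IgG receptor gene, rose by 0.45. Between 9 and 12 members rose in the fits that left out 1 library.

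Interferon-stimulated genes fell in part. Of 39 tested members 10 fell and 0 rose (median -0.20), against 5.15% and 5.96% of all genes. At an unadjusted p under 0.05, 14 were lower and 3 higher, and DESeq2 called 1 riser. IFIH1, which encodes the RNA sensor MDA5, had 8.61, 8.51 and 9.51 CPM at 12 h and 13.7, 16.1 and 12.8 CPM at 4 h (-0.68 ± 0.09, adjusted p = 2.5e-07). The related sensor gene RIGI had 15.3, 14.2 and 15.3 CPM at 12 h and 20.8, 21.3 and 17.3 CPM at 4 h (-0.41 ± 0.09, adjusted p = 0.0013). Both genes were lower in every 12 h library. OASL fell by 0.92 and IFIT3 by 0.49. IFIT1, IFIT5 and IRF9 were called lower as well but share 47.6%, 100% and 86.9% of their exon length with other models and are uncertain. Well-known members such as ISG15 and MX1 were not called.

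The IFIH1 promoter is shown as an example of the letters GAAA NN GAAA, the core of the response element bound by interferon regulatory factors. It spans chr2:162318635-162318934 (minus strand, RefSeq, GRCh38.p14), with matches on either strand in capitals.
IFIH1: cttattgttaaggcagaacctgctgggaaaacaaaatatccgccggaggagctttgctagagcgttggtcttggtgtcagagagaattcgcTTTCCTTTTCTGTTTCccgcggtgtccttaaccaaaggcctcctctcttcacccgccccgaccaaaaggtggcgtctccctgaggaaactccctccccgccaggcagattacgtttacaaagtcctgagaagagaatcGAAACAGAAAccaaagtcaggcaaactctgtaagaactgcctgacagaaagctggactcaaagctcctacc
It holds 3 matches, of which 2 overlap, and the one farthest from the start begins 159 bases before the gene start. The letters occurred in 17 of the 30 promoters found for the list (56.7%) and in 996 of 27305 promoters (3.65%). Of the 17 genes, 4 fell and 13 were not called, so holding the letters did not single out the falling members.

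Immediate early factors split. Of 26 tested, 4 rose and 7 fell (median -0.16), against 5.96% and 5.15% of all genes. Which of them passed depended on single libraries, with 2 to 7 falling and 1 to 5 rising in the fits that left out 1 library. Without replicate 5 at 4 h 2 fell and 5 rose. NR4A1, an orphan nuclear receptor gene, fell in all those fits. It had 2.41, 2.89 and 3.17 CPM at 12 h and 4.97, 5.93 and 8.47 CPM at 4 h (-1.20 ± 0.17, adjusted p = 1.6e-06). KLF10, a TGF beta inducible factor gene, had 15.6, 15.6 and 15.1 CPM at 12 h and 19.5, 19.5 and 19.7 CPM at 4 h (-0.34 ± 0.07, adjusted p = 0.0013). In the opposite direction, FOSL2, which encodes the AP-1 subunit FRA2, had 24.5, 28.2 and 25.1 CPM at 12 h and 15.0, 12.9 and 18.3 CPM at 4 h (0.76 ± 0.10, adjusted p = 1.3e-06), with 25.1% of its exon length shared with another model. FOS and EGR1 were low at both times, whereas the 27 listed genes summed to 456.3 to 537.2 CPM at 12 h and 439.5 to 539.5 CPM at 4 h. FOS had 1.82, 2.21 and 1.68 CPM at 12 h and 1.07, 2.16 and 1.21 CPM at 4 h (adjusted p = 0.28), and EGR1 had 1.66, 1.56 and 1.76 CPM at 12 h and 1.67, 1.87 and 2.30 CPM at 4 h (adjusted p = 0.41). Among 17 phosphatases and Sprouty family genes that feed back on MAP kinases, 5 fell and 1 rose, against 5.15% and 5.96% of all genes. DUSP5 fell by 0.79, while DUSP6, which acts on ERK, had 48.5, 54.3 and 54.3 CPM at 12 h and 37.9, 39.3 and 38.7 CPM at 4 h (0.44 ± 0.08, adjusted p = 0.00014). DUSP2 fell by 0.81 but shares 51.4% of its exon length, and DUSP6 shares 24.3%. Without replicate 4 at 12 h, 3 members of this feedback list fell.

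**Figure D2:**
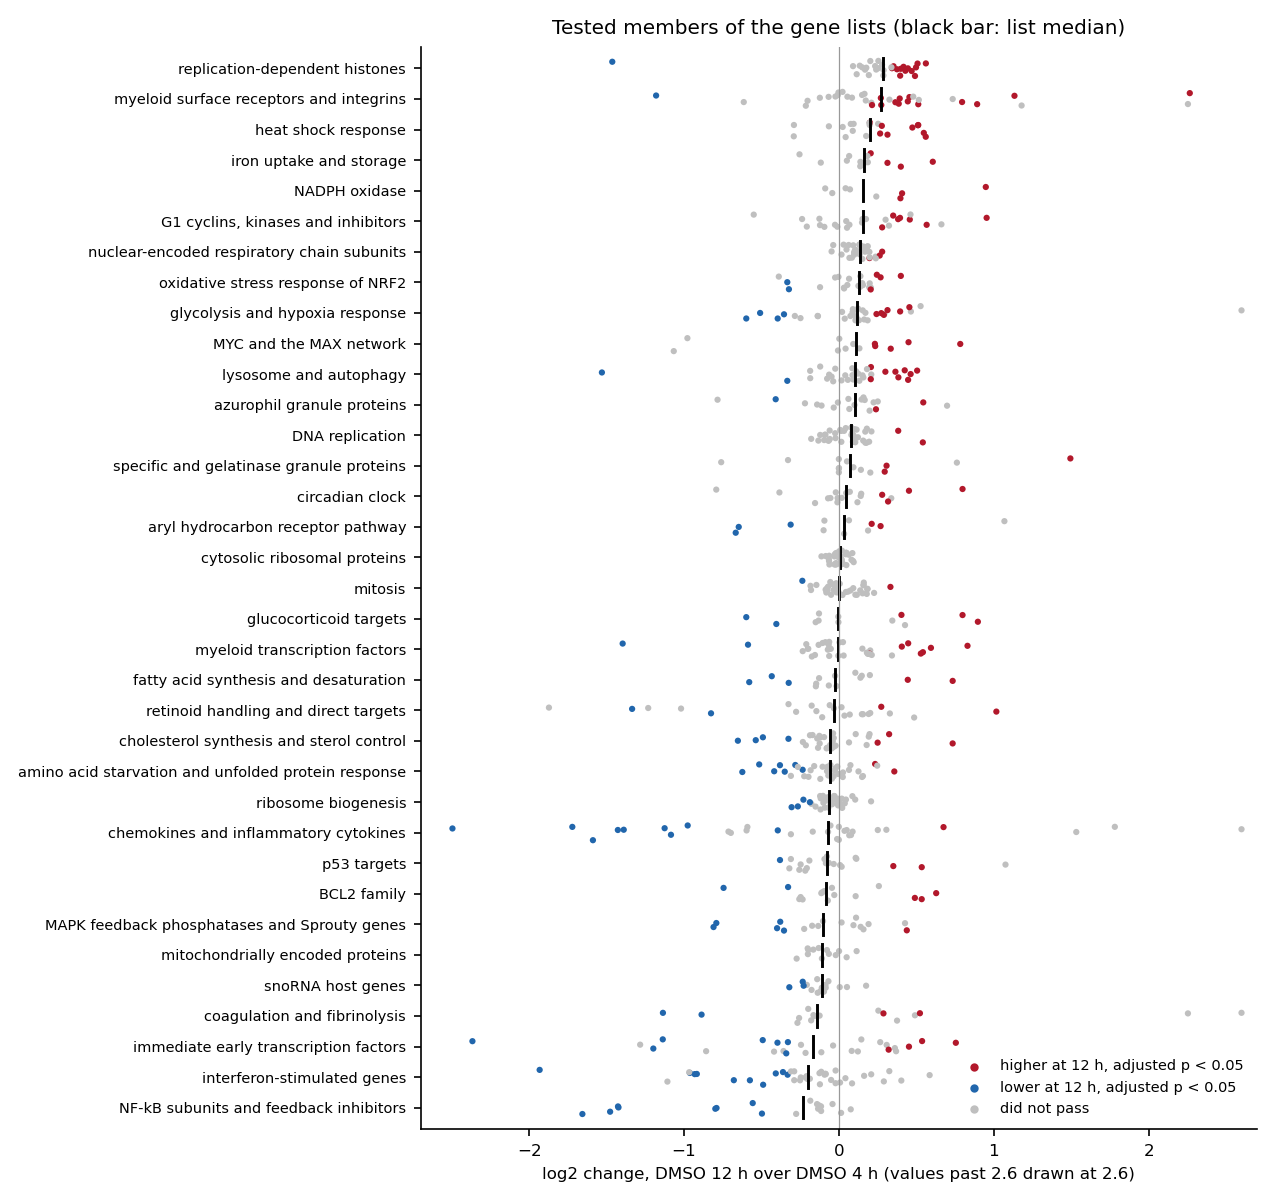
Log2 change from 4 h to 12 h (x axis) of each tested member of 35 gene lists (rows, ordered by median, drawn as a black bar), with members higher at 12 h in red, lower in blue and those that did not pass in grey. NF-kB genes have the lowest median, -0.23, and histone genes the highest, 0.29.

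The levels at 0 h and 24 h place these values in time and are given as a description, since the 24 h libraries ran in other lanes. RELB averaged 12.3 CPM in untreated cells at 0 h, then 26.3 CPM at 4 h, 9.43 CPM at 12 h and 13.5 CPM at 24 h in DMSO. ICAM1 averaged 32.8 CPM at 0 h, 85.5 CPM at 4 h, 37.8 CPM at 12 h and 54.2 CPM at 24 h. BIRC3, CCL2, FAM30A and PDGFA likewise had their highest mean of the 4 times at 4 h. Other falling genes had already dropped by 4 h. TNF averaged 314 CPM at 0 h, 57.9 CPM at 4 h, 44.0 CPM at 12 h and 49.9 CPM at 24 h, and NR4A1 18.3, 6.46, 2.82 and 3.11 CPM at these times. FOS averaged 73.3 CPM at 0 h and between 1.48 and 1.90 CPM at each later time. Among rising genes, IRAG2 averaged 62.1 CPM at 0 h, 18.9 CPM at 4 h, 50.6 CPM at 12 h and 49.8 CPM at 24 h, so the low value was that of 4 h. SESN3, RGS18, ABCA1 and BTG1 also had their lowest mean at 4 h, whereas CYBB averaged 206 CPM at 0 h, 218 CPM at 4 h, 288 CPM at 12 h and 278 CPM at 24 h.

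**Figure D3:**
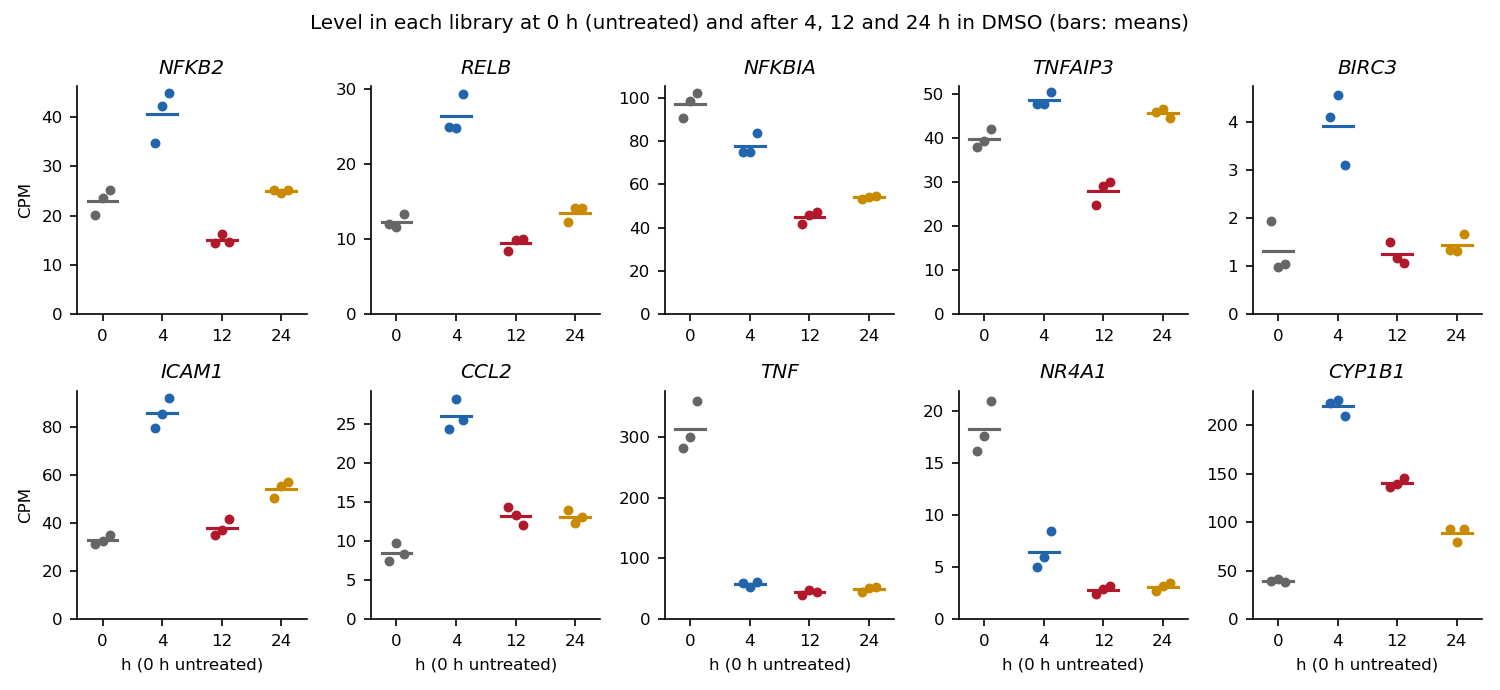
CPM of 10 genes lower at 12 h than at 4 h, in each library at 0 h (untreated) and after 4, 12 and 24 h in DMSO, with bars at the means. RELB, ICAM1 and CCL2 have their highest mean at 4 h, and TNF and NR4A1 at 0 h.

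A minority of the genes of myeloid maturation rose, where 5.96% of all genes did. Among 8 tested subunits and partners of the phagocyte NADPH oxidase, which makes superoxide against microbes, 3 rose and 0 fell. CYBB, the gene of its catalytic subunit gp91phox, had 295, 285 and 283 CPM at 12 h and 224, 235 and 195 CPM at 4 h (0.40 ± 0.08, adjusted p = 0.00027). Without replicate 2 at 4 h 1 member of the list rose, and without replicate 5 at 12 h or replicate 4 at 4 h 2 rose. The call of NCF1 is uncertain because the gene has near-identical pseudogenes, and it was lost without replicate 2 or 5 at 12 h (adjusted p = 0.12 and 0.067) or replicate 2 or 4 at 4 h (0.17 and 0.069). Of 14 specific and gelatinase granule genes 3 rose and 0 fell, among them CHI3L1, a chitinase-like glycoprotein gene, with 150, 158 and 154 CPM at 12 h and 130, 122 and 124 CPM at 4 h (0.30 ± 0.07, adjusted p = 0.0032). HP, the haptoglobin gene, rose by 1.495 at under 3 CPM and shares 29.7% of its exon length. Azurophil granule genes, the earlier set that marks promyelocytes, showed few calls, with 2 rising and 1 falling of 19, or 4 rising without replicate 4 at 4 h. LYZ, the lysozyme gene, had 20.2, 18.3 and 19.1 CPM at 12 h and 14.2, 14.8 and 10.4 CPM at 4 h (0.55 ± 0.10, adjusted p = 0.00025), and the protease gene CTSG fell by 0.41.

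Of 35 myeloid transcription factors 7 rose and 2 fell, against 5.96% and 5.15% of all genes, so the falls were near the share of all genes. MYB, which maintains progenitors, had 287, 267 and 273 CPM at 12 h and 204, 208 and 195 CPM at 4 h (0.45 ± 0.06, adjusted p = 7.8e-07). IRF2, a repressor of interferon responses, rose by 0.83, the ETS factor FLI1 by 0.53, LMO2 by 0.41 and CEBPD by 0.59. GATA2, a stem and mast cell factor, had 41.6, 51.7 and 51.3 CPM at 12 h and 69.4, 64.4 and 83.7 CPM at 4 h (-0.59 ± 0.09, adjusted p = 9.7e-06). Of 7 tested monocyte and macrophage markers 0 rose and 1 fell, and their sum over the 9 listed genes was 9.28 to 9.34 CPM at 12 h and 11.2 to 12.3 CPM at 4 h, with C1QB and FCGR3A at 0 in all 6 libraries. Of 23 genes of retinoid handling 2 rose and 2 fell, which is near the shares of all genes (5.96% and 5.15%). DHRS9, a retinol dehydrogenase gene, had 21.5, 24.9 and 23.4 CPM at 12 h and 11.4, 12.2 and 11.02 CPM at 4 h (1.02 ± 0.08, adjusted p = 3.9e-12). HIC1, a repressor gene, had 1.23, 1.09 and 1.30 CPM at 12 h and 2.87, 2.71 and 3.47 CPM at 4 h (-1.33 ± 0.21, adjusted p = 1.1e-05), and STRA6, the retinol uptake receptor gene, fell by 0.83.

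Replication-dependent histone genes, transcribed in S phase, showed the clearest dependence on a single library. With all 6 libraries, 13 of 30 tested members rose and 1 fell (median 0.29), against 5.96% and 5.15% of all genes. Without replicate 5 at 4 h 29 rose and 1 fell. Leaving out replicate 2 at 4 h instead left 3 rising and 0 falling, replicate 4 at 4 h 6 and 0, replicate 4 at 12 h 7 and 0, and replicate 5 at 12 h 6 and 1. Summed over the list, levels were 8459, 9600 and 9754 CPM at 12 h and 6093, 6665 and 10020.1 CPM at 4 h, so replicate 5 at 4 h lay above all 12 h libraries. It is also the library of the 6 with the largest share of mitochondrial and small RNA counts. With those genes left out of the fit 14 histone members rose and 1 fell. The part of the library's composition in its histone values was not otherwise tested. H1-3, a linker histone gene, had 316, 326 and 334 CPM at 12 h and 185, 216 and 286 CPM at 4 h (0.51 ± 0.09, adjusted p = 0.00019). Core histone genes have near-identical copies and are given as a group only. Other S phase genes barely moved. Of 36 DNA replication genes 2 rose, RRM2, a ribonucleotide reductase subunit gene, by 0.54 and POLA1 by 0.38, and 0 fell. MKI67, a marker of cycling cells, had 515, 410 and 424 CPM at 12 h and 464, 453 and 434 CPM at 4 h (adjusted p = 1.0).

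Heat shock genes rose in part, 9 of 21 with 0 falling (median 0.20), against 5.96% and 5.15% of all genes. At an unadjusted p under 0.05, 12 were higher and 2 lower. DESeq2 called 11 higher, and the 2 groups fitted alone gave 5 higher. A fit without the filter on low counts gave 9 higher and 2 lower. CHORDC1, a partner of HSP90, had 111, 91.7 and 106 CPM at 12 h and 71.1, 79.2 and 58.6 CPM at 4 h (0.56 ± 0.10, adjusted p = 0.00023). HSP90AA1, the inducible HSP90 gene, had 2389, 2293 and 2353 CPM at 12 h and 1689, 1941 and 1431 CPM at 4 h (0.47 ± 0.09, adjusted p = 0.0004). AHSA1, which activates the ATPase of HSP90, rose by 0.51, as did HSPH1, an exchange factor of HSP70, and HSPA4L rose by 0.55. In each of them replicate 5 at 4 h held the lowest value, and 6 members rose without it, as without replicate 4 at 12 h. The calls of HSPA8 and DNAJA1, both HSP70 system genes, were lost without it (adjusted p = 0.16 and 0.35) and without replicate 4 at 12 h (0.064 and 0.069). DNAJA1 lost its call without replicate 2 or 5 at 12 h too (0.13 and 0.084). The CHORDC1 promoter (chr11:90223000-90223299, minus strand, RefSeq, GRCh38.p14) is shown because the gene rose most among the rising members whose promoters hold letters of a heat shock element. It holds 3 overlapping matches to these letters, GAA NN TTC NN GAA, in capitals.
CHORDC1: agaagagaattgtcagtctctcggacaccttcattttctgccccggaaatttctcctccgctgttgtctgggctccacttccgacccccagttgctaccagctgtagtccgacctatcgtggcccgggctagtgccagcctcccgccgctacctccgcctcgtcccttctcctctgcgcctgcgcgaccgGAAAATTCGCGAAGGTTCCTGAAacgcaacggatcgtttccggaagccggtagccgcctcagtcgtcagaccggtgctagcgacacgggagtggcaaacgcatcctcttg
The run starts 60 bases before the gene start. Of the 20 promoters found for the list 4 hold these letters (20%), 3 of rising genes and 1 of a gene that was not called, against 133 of 27305 promoters (0.487%).

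**Figure D4:**
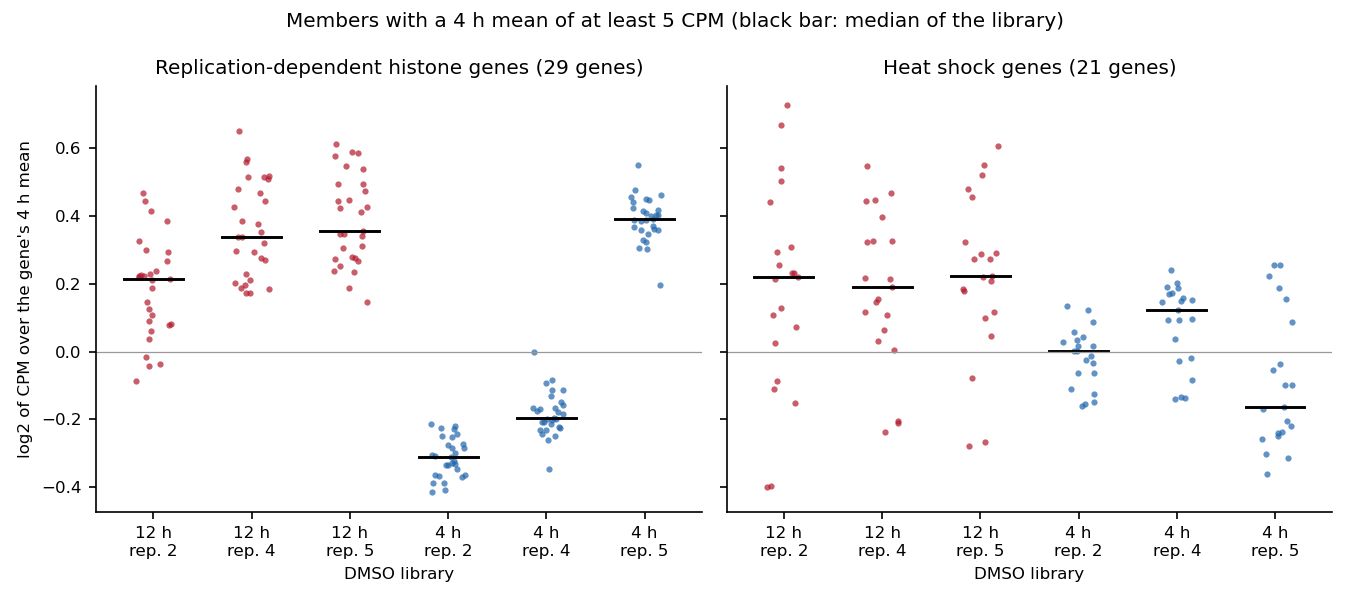
Log2 ratio of each library's CPM to the gene's 4 h mean for 29 histone genes (left) and 21 heat shock genes (right) with a 4 h mean of at least 5 CPM, with 12 h libraries in red left of 4 h libraries in blue and medians as black bars. Histone medians are 0.21 to 0.35 at 12 h and -0.31, -0.20 and 0.39 in replicates 2, 4 and 5 at 4 h.

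Several inhibitors of the cell cycle rose. Of 25 G1 cyclins, kinases and inhibitors 7 rose and 0 fell, against 1 and 1 of 36 mitosis genes, or 6 and 1 without replicate 4 at 4 h. For these and the lists that follow, the shares of all genes were 5.96% rising and 5.15% falling. Of 32 ribosomal protein genes 0 were called by edgeR and 0 by DESeq2, and 0 at an unadjusted p under 0.05. BTG1, an antiproliferative gene, had 31.5, 30.4 and 31.97 CPM at 12 h and 17.9, 14.6 and 16.1 CPM at 4 h (0.95 ± 0.07, adjusted p = 3.9e-12). CDKN1B, the p27 gene, had 17.9, 17.4 and 19.1 CPM at 12 h and 12.7, 14.03 and 12.8 CPM at 4 h (0.46 ± 0.08, adjusted p = 0.00015). CDKN2D rose by 0.57, CDKN2C by 0.35 and RB1 by 0.40. MYC itself was level, with 386, 451 and 426 CPM at 12 h and 390, 403 and 468 CPM at 4 h (0.00 ± 0.08), whereas MNT, a MAX partner that opposes MYC, had 14.5, 12.2 and 13.6 CPM at 12 h and 7.29, 7.62 and 8.32 CPM at 4 h (0.78 ± 0.10, adjusted p = 7.9e-07). In that network 5 of 12 members rose and 0 fell, and 1 of 10 rose with the 2 groups fitted alone. Of 36 ribosome biogenesis genes 4 fell and 0 rose, or 1 to 6 fell without 1 library, and of the 4 only NOP58, a box C/D snoRNP protein gene, did so in each fit that left out 1 library (-0.31 ± 0.07, adjusted p = 0.0017). PER1, a repressor of the circadian clock and a glucocorticoid target, had 21.9, 29.2 and 26.9 CPM at 12 h and 13.7, 13.5 and 17.7 CPM at 4 h (0.80 ± 0.11, adjusted p = 8.4e-07), and 4 of 19 clock genes rose with 0 falling, or 1 without replicate 4 at 12 h or replicate 2 at 4 h. ZBTB16, also induced by glucocorticoids, rose by 0.90. The 12 tested glucocorticoid targets had no common direction, with 3 rising, 2 falling and a median log2 change of -0.003.

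Survival genes and the coagulation genes that give this leukaemia its bleeding tendency changed singly. BCL2, which blocks mitochondrial apoptosis, had 83.5, 76.4 and 78.5 CPM at 12 h and 59.1, 54.4 and 56.1 CPM at 4 h (0.49 ± 0.06, adjusted p = 4.1e-07). Of the proapoptotic BH3-only genes BCL2L11 rose by 0.63 and BMF fell by 0.74, so members of the family moved in both directions. In the family 3 rose and 2 fell of 16, against 5.96% and 5.15% of all genes. THBD, the thrombomodulin gene, had 21.4, 24.97 and 22.2 CPM at 12 h and 51.5, 41.8 and 57.9 CPM at 4 h (-1.14 ± 0.12, adjusted p = 3.4e-09). PLAU, the urokinase gene, had 23.2, 27.8 and 27.6 CPM at 12 h and 17.02, 19.4 and 18.3 CPM at 4 h (0.52 ± 0.09, adjusted p = 6.1e-05).

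Lipid genes changed in both directions. HMGCS1, an early enzyme of sterol synthesis, had 60.7, 51.5 and 55.3 CPM at 12 h and 86.7, 99.5 and 76.8 CPM at 4 h (-0.65 ± 0.09, adjusted p = 1.6e-06), and CYP51A1, a later one, fell by 0.49. INSIG1, which retains the sterol sensor in the endoplasmic reticulum, rose by 0.25 (adjusted p = 0.0093, but 0.056 without replicate 2 at 12 h). ABCA1, the cholesterol exporter gene, had 86.5, 77.0 and 71.0 CPM at 12 h and 47.6, 47.6 and 45.7 CPM at 4 h (0.73 ± 0.10, adjusted p = 4.9e-07). In the whole cholesterol list 3 rose and 4 fell of 33, against 5.96% and 5.15% of all genes. The desaturase genes FADS2 and FADS1 fell by 0.58 and 0.32, and ACSL1, which activates fatty acids, had 105, 108 and 110 CPM at 12 h and 62.5, 66.4 and 65.8 CPM at 4 h (0.73 ± 0.07, adjusted p = 2.6e-10).

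Lysosome and stress genes showed mixed directions. Although TFEB fell, 9 of 32 lysosome and autophagy genes rose and 2 fell, among the risers NEU1, a sialidase gene, with 27.6, 35.2 and 32.8 CPM at 12 h and 22.6, 22.5 and 24.4 CPM at 4 h (0.46 ± 0.08, adjusted p = 0.00011), and ATP6V1A, a proton pump subunit gene, by 0.38. The second faller was SQSTM1, the p62 gene of selective autophagy, by 0.33. Of 13 iron genes 4 rose and 0 fell, against 5.96% and 5.15% of all genes. Without 1 library 3 to 5 rose, and 2 fell without replicate 5 at 4 h and 1 without replicate 2 at 12 h. DESeq2 called 6 higher and 1 lower, and the 2 groups fitted alone gave 2 higher. The ferroportin gene SLC40A1 rose by 0.61 and the ferritin light chain gene FTL by 0.40. In the stress list of amino acid starvation and unfolded proteins 7 of 38 fell and 2 rose. PPP1R15A, which restarts translation, had 21.5, 23.6 and 21.8 CPM at 12 h and 31.3, 33.0 and 31.4 CPM at 4 h (-0.51 ± 0.08, adjusted p = 2.7e-05), ATF5 fell by 0.42, and XBP1, a secretory pathway factor gene, rose by 0.36. ATF4 at 257 to 297 CPM at 12 h and 252 to 309 CPM at 4 h (adjusted p = 0.90) and DDIT3 at 10.8 to 11.8 CPM at 12 h and 12.1 to 14.1 CPM at 4 h (adjusted p = 0.32) were not called. CYP1B1, the most abundant aryl hydrocarbon receptor target measured here, had 137, 139 and 145 CPM at 12 h and 224, 226 and 210 CPM at 4 h (-0.65 ± 0.07, adjusted p = 1.1e-08), after an average of 39.5 CPM in untreated cells. VEGFA fell by 0.39 and HIF1A rose by 0.40.

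Among long noncoding RNAs, ZFPM2-AS1 had 18.2, 13.1 and 18.1 CPM at 12 h and 7.93, 8.64 and 7.92 CPM at 4 h (1.00 ± 0.14, adjusted p = 1.5e-06). FOXP1-DT had 4.07, 3.48 and 4.39 CPM at 12 h and 1.37, 1.76 and 2.96 CPM at 4 h (0.95 ± 0.21, adjusted p = 0.0014). FAM30A had 14.8, 16.7 and 16.3 CPM at 12 h and 39.9, 34.98 and 51.4 CPM at 4 h (-1.40 ± 0.12, adjusted p = 2.1e-11). The 2 times do not overlap in these 3 transcripts, as the naming rule required. LIPE-AS1 fell by 0.81. PCAT18, PPM1F-AS1, HIF1A-AS3 and SGMS1-AS1 also met the naming rule, at mean levels below 2.1 CPM in both groups. Of these, PCAT18 (1.65, adjusted p = 0.029) lost its call without replicate 2 at 12 h (0.20) or replicate 5 at 4 h (0.16), PPM1F-AS1 (1.00, 0.019) without replicate 5 at 12 h (0.14) or replicate 2 at 4 h (0.135), and SGMS1-AS1 (-0.88, 0.0096) without replicate 5 at 12 h (0.066). HIF1A-AS3 (-1.23, 0.030) lost it without replicate 4 or 5 at 12 h (0.16 and 0.10) or replicate 2 or 4 at 4 h (0.093 and 0.059).

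The same interval in ATRA cells, measured in 6 other libraries, gave 8139 called genes (35.4%), 4290 rising (18.7%) and 3849 falling (16.8%). Of the 1370 genes that rose in DMSO cells 991 (72.3%) rose and 39 fell in ATRA cells, and of the 1183 that fell 776 (65.6%) fell and 67 rose. Both shares lie above the shares of all tested genes, and the 2 comparisons have no library in common. A test of the difference between the 2 changes, which does use the DMSO libraries, called 3222 genes (14%), 1868 with the higher change in ATRA cells (8.13%) and 1354 with the lower (5.89%). It called 480 of the DMSO risers and 323 of the DMSO fallers.

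Several NF-kB genes fell further in ATRA cells. RELB changed by -2.26 in ATRA cells and -1.48 in DMSO cells (difference -0.79 ± 0.15, adjusted p = 0.0003), NFKB2 by -1.84 in ATRA cells and -1.43 in DMSO cells, and NFKBIA by -1.25 in ATRA cells and -0.79 in DMSO cells. In the NF-kB list the difference was lower in ATRA cells for 4 of 18 members and higher for 1, against 5.89% and 8.13% of all genes. The higher one was NFKB1, at -0.29 in ATRA cells and -0.56 in DMSO cells. Of 39 interferon-stimulated genes 17 rose and 8 fell in ATRA cells, where 18.7% and 16.8% of all genes did. In DMSO cells 0 rose and 10 fell, against 5.96% and 5.15% of all genes. The difference was called higher in ATRA cells for 19 of the 39 members and lower for 1, against 8.13% and 5.89% of all genes. Some receptor and maturation genes rose more in ATRA cells, and so did MYB. ITGAM changed by 2.28 in ATRA cells and 0.51 in DMSO cells, CYBB by 1.84 in ATRA cells and 0.40 in DMSO cells, and MYB by 2.08 in ATRA cells and 0.45 in DMSO cells, each with the difference called. In ATRA cells 23 of 30 histone members rose and 1 fell, against 18.7% and 16.8% of all genes. Among 21 heat shock members 5 rose and 3 fell. The difference was called higher in ATRA cells for 0 histone and 0 heat shock members, and lower for 7 heat shock members. CYP1B1 fell by 2.66 on the log2 scale in ATRA cells and by 0.65 in DMSO cells, and HIC1 rose by 0.80 in ATRA cells while it changed by -1.33 in DMSO cells.

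**Figure D5:**
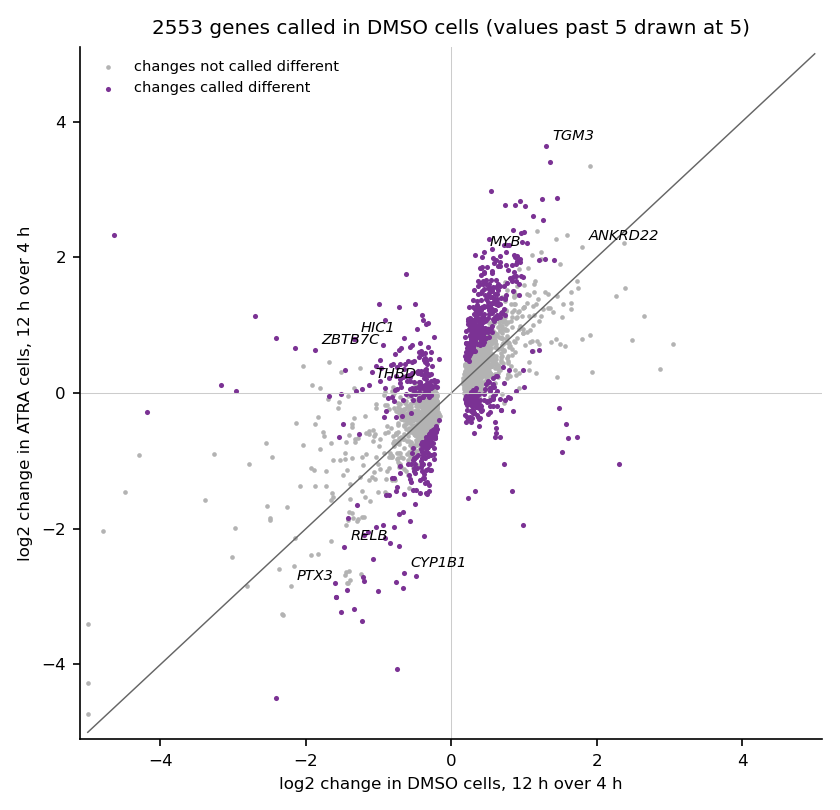
Log2 change from 4 h to 12 h in ATRA cells (y axis) against that in DMSO cells (x axis) for the 2553 genes called in DMSO cells, with a line of equal change and genes whose changes were called different in purple. RELB and PTX3 lie in the lower left, ANKRD22 and TGM3 in the upper right, and ZBTB7C and HIC1 fell in DMSO cells and rose in ATRA cells.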

How the data were processed

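Stranded total RNA libraries of NB4 cells were read in pairs, per the labels' protocols. The submitters' processing notes name Trimmomatic 0.36, STAR 2.5.2b and Subread 1.5.1 with build GRCh38. The authors deposited 1 table of raw counts of fragments per gene for 33 libraries and 85160 genes, made with featureCounts 1.5.1 per the file headers, strand-specific and with fragments over several genes counted in each, so overlapping genes share fragments.

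All 33 libraries were fitted with edgeR 4.0.16 (quasi-likelihood test, TMM scaling, filterByExpr, 1 mean per group), with Benjamini-Hochberg adjustment over 22971 genes and a threshold of 0.05. SE is the log2 change divided by the root of F. Alternatives used DESeq2 1.42.0 and limma 3.58.1. The script was tested on simulated data. Genes were named by size of change: 14 protein-coding and 4 long noncoding genes in each direction among called genes with a symbol, an average log2 CPM of at least 1 over all 33 libraries (which genes low in the 6 libraries can meet through other groups), no overlap between times and at most 20% of exon length shared, plus up to 6 members of smallest p per list and those a sentence on a role needed. Members and lists were chosen with earlier results of these data known. Counting intervals (95%) cover counting error only. The labels call replicates biological without saying what was separate, so p-values measure the spread between these samples. Some genes that these rules name are not reported here.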

Additional observations from a re-analysis of the deposited data

Results flagged for a closer look

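For 21 named genes the change between 4 h and 12 h differed between ATRA and DMSO cells by the edgeR test of the difference, ATRA change minus DMSO change on the log2 scale, at an adjusted p under 0.05 with 3 libraries per group. This test called 14% of all tested genes, and it uses the DMSO libraries of the report.

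Among genes that rose in DMSO cells the difference was 2.336 for TGM3, 1.615 for S100A8, 1.022 for FOXP1-DT, 0.752 for GPR85, 0.6844 for SESN3 and 0.5372 for IRAG2, all of which rose more in ATRA cells. It was -0.578 for ABTB2 and -3.354 for CD80, a gene with 18 fragments at 12 h and 3 at 4 h in DMSO cells. S100A8, like CD80, lay below 1 CPM in all 6 DMSO libraries and met the level limit only through other groups.

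Among genes that fell in DMSO cells, the difference was 2.506 for ZBTB7C, 1.8 for PTGER2, 1.494 for FCAR, 1.034 for SCARF1, 0.8905 for TREM1 and 0.756 for LIPE-AS1. RELB at -0.785 and TNFRSF4 at -1.21 fell further in ATRA cells. PTGER2 lay below 1 CPM in all 6 DMSO libraries and met the level limit only through other groups.

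Of the genes named whatever their value, MYC had the largest difference, 1.374, with a change of 1.38 in ATRA cells and 0.00 in DMSO cells. MPO had a difference of -0.4577, DDIT3 of -0.4402, ATF4 of -0.318 and INSIG1 of -0.3142.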

How the results depend on the processing

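Against 2553 calls (1370 rising, 1183 falling), fitting the 2 groups alone gave 849 calls (509 rising, 340 falling), a fit with 6 libraries and so fewer residual degrees of freedom. Several list counts were smaller in that fit. In it 2 of 30 histone, 1 of 8 NADPH oxidase, 1 of 18 clock and 1 of 10 MYC network genes rose. Of 22 immediate early factors 1 rose and 2 fell, and 0 of 36 ribosome biogenesis genes fell. The NF-kB list kept 8 falling members of 18, and 9 of 36 interferon-stimulated genes fell. Without 1 of the 6 libraries the calls numbered 1831 to 2662, with 1016 to 1402 rising and 705 to 1351 falling. DESeq2, limma-voom, RLE scaling, no filter and leaving out mitochondrial and small RNA genes gave 2031 to 2956 calls. Same-numbered libraries deviated together in 1 of 3 pairs only (r = 0.322, 0.0292 and 0.0892), and not every library correlated best with its own number. With 3 libraries a group these correlations cannot settle whether the numbers pair the samples. Replicate 4 had the lowest share of mitochondrially encoded counts at both times in DMSO cells (0.928% at 12 h and 1.03% at 4 h). The replicate block gave 2911 calls over 33 libraries (1561 rising, 1350 falling) and 984 with the 2 groups alone (610 rising, 374 falling). The difference between ATRA and DMSO cells called 2519 to 3718 genes over all alternatives, including the replicate block (3531 over 33 libraries, 3149 with the groups alone). With promoters cut to 150 bases before the start, the letters occurred in 0.418% (NF-kB), 2.36% (interferon) and 0.293% (heat shock) of all promoters. Of 131 called genes named in the text, 117 kept the call without any 1 library. With the 2 groups fitted alone 14 lost it, and 16 with the replicate block as well. These 2 fits tested 140 of the 144 genes followed, and genes they did not test are not counted as lost. The sign was not read for genes called in neither fit (22 changes of sign). Depth limits genes below about 1 CPM.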

Other observations

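Genes of glycolysis and oxygen sensing changed little and in both directions, with 6 rising and 4 falling of 34, against 5.96% and 5.15% of all genes. PKM, the pyruvate kinase of proliferating cells, had 789, 874 and 854 CPM at 12 h and 686, 693 and 703 CPM at 4 h (0.27 ± 0.07, adjusted p = 0.0056). Without replicate 2 at 4 h 2 members rose, and without replicate 2 at 12 h 1 fell.

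TIPARP, a target and repressor of the aryl hydrocarbon receptor, had 46.5, 44.8 and 42.5 CPM at 12 h and 57.7, 59.8 and 48.6 CPM at 4 h (-0.31 ± 0.07, adjusted p = 0.0018), the same direction as CYP1B1. Nuclear-encoded subunits of the respiratory chain rose in 3 of 35 cases, against 5.96% of all genes. The count was 12 without replicate 4 at 4 h and 0 without replicate 5 at 4 h or replicate 4 at 12 h.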
